A study of Homo sapiens with 8 samples.

Results

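The sites described here are stretches of the genome where BRG1 and Flag-tagged actin were both listed in control HCT-116 cells. A site is a row of the BRG1 control peak list that overlapped a row of the Flag-actin control list by at least 1 bp. Rows overlapping a row of either IgG list were removed first, and chromosomes 1 to 22 and X were kept. The rule gave 1284 sites, which are 3.82% of the 33596 BRG1 rows left after clearing. They touched 1263 Flag-actin rows, which are 4.96% of 25460. The sites were selected on the peak calls of both control lists, which rest on column 4, their total signal, so signal and width in control are given as description, without a test.

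HCT-116 is a human colorectal carcinoma line. The series profiled it by CUT&RUN, which tethers a nuclease to chromatin through an antibody and sequences the fragments that are cut free. The BRG1 antibody was used on cells with SETD3 knocked out, in 1 library named KO1 and 1 named KO2, and in 1 library of control cells. The antibody against Flag-tagged wild type actin was used on the same design of KO1, KO2 and control cells. IgG was used on control cells once for each antibody, and the title of the one that goes with Flag contains the term Empty. Whether KO1 and KO2 come from different clones or cultures, how the Flag-actin was expressed, and whether cells of the BRG1 libraries carried it are not stated in the labels. No library was repeated, so differences between conditions have no test here. Shares carry 95% Wilson intervals, which cover counting error over sites only.

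BRG1, encoded by SMARCA4, is an ATPase of the SWI/SNF chromatin remodelling complexes, which use ATP to slide or evict nucleosomes at promoters and enhancers. Beta-actin (ACTB), known mainly from the cytoskeleton, is also a stable subunit of these complexes, where it pairs with the actin-related protein ACTL6A on the helicase-SANT domain of the ATPase. Nuclear actin is also found in other remodellers, such as INO80, and with RNA polymerases. SETD3 is the enzyme that methylates a histidine of actin.

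Sequence is shown for 5 of the gene starts that carried a site, because they show promoter DNA at sites where the BRG1 row reached a window. They are the 4 highest-ranked such sites plus GCSH, whose BRG1 row was kept in both KO lists. Each window runs from 250 bases before to 50 bases after the start, 5′ to 3′, from the RefSeq promoter table (build GRCh38, the same as hg38). Capitals mark matches, on either strand, to the Sp/KLF motif GGGCGG, the CCAAT box, the ETS motif CCGGAAG, the E-box CACGTG, the AP-1 motif TGANTCA or the TATA box TATAAA, with overlapping matches joined.
IQGAP1, chr15:90387992-90388291, plus strand: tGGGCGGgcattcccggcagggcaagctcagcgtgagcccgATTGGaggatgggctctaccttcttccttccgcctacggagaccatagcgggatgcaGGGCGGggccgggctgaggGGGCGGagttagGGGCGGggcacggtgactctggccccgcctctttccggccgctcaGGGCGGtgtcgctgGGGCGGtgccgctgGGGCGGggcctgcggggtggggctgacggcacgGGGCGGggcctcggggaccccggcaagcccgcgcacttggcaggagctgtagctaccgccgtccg
GPHN, chr14:66507897-66508196, plus strand: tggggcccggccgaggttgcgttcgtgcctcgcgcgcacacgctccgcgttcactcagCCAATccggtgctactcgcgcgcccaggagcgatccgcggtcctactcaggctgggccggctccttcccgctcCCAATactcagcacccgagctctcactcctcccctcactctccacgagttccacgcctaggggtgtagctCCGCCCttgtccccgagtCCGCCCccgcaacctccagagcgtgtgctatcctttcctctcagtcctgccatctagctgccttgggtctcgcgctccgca
RPL13, chr16:89560407-89560706, plus strand: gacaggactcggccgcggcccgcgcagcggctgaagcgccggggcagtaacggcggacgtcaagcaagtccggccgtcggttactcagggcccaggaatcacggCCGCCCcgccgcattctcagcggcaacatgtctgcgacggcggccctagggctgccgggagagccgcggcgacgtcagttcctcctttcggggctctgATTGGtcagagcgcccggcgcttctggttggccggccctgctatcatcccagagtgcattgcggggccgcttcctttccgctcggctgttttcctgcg
DHX40, chr17:59565360-59565659, plus strand: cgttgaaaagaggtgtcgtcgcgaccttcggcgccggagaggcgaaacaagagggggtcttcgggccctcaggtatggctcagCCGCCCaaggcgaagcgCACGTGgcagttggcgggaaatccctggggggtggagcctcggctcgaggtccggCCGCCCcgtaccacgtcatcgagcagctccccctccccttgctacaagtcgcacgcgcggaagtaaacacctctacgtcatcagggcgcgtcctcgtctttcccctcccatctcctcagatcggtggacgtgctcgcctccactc
GCSH, chr16:81096346-81096645, minus strand: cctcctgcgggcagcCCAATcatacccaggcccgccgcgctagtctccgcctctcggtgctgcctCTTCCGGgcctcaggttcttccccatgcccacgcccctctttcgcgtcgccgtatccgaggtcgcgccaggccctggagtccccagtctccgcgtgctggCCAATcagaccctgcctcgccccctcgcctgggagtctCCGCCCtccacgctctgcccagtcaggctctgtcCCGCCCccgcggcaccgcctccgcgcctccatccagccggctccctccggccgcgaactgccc

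IQGAP1 encodes a scaffold that binds actin filaments, and its window holds 8 GGGCGG matches and 1 CCAAT match on either strand. The Flag-actin row there, chr15:90388061-90388150, was 90 bp wide and lay wholly inside this window. At GPHN the Flag-actin row began at position 66508171, near the end of the window, and at GCSH it ended at 81096300, outside the window. GPHN encodes gephyrin, a scaffold of inhibitory synapses that is also an enzyme of molybdenum cofactor synthesis. RPL13 encodes a protein of the large ribosomal subunit, DHX40 a putative RNA helicase, and GCSH the lipoyl-carrying H protein of the glycine cleavage system. A match is a description of letters and not a bound site.

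Across all 22132 promoters of protein-coding genes in that table, 135 promoters of 119 genes overlapped the BRG1 row of a site. The table covers 15812 of the 19974 protein-coding genes. The 135 had a median GC content of 69.3% and a median of 31 CpG, against 65.7% and 27 at the 4516 promoters with a BRG1 row but no Flag-actin row. They stood at 67.3% and 25 at the 471 promoters with Flag-actin without BRG1, and at 62.3% and 21 over all promoters. GGGCGG was in 77.8% of the 135, in 76.5% of those with BRG1 alone, in 63.9% of those with Flag-actin alone and in 56.3% of all. In this motif the promoters of the sites were closer to those with BRG1 alone. Both sets were chosen by a BRG1 row over the promoter, so part of this likeness is set by the choice. The Flag-actin row of a site did not have to reach the promoter. By median GC content the 135 were closer to promoters with Flag-actin alone, and by median CpG number to those with BRG1 alone. CCAAT was in 40.7% of the 135, against 44.5% with BRG1 alone and 26.5% with Flag-actin alone, and CCGGAAG in 16.3%, against 19.4% and 11.3%. CACGTG was in 16.3%, and TGANTCA and TATAAA in 4.44% each. Over all promoters the shares of these 5 motifs, in the same order, were 34.6%, 12.8%, 8.34%, 6.15% and 9.46%. The E-box share came from 22 of the 135 promoters, and it was 9.43% at promoters with BRG1 alone and 11.5% at those with Flag-actin alone.

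The overlap behind a site was usually short. Its median was 110 bp (quartiles 40 and 190), from 10 bp to 620 bp. The midpoints of the stretches of maximum signal of BRG1 and Flag-actin lay a median of 55 bp apart (quartiles 5 and 175), and at most 950 bp. The BRG1 row lay inside its Flag-actin row at 484 sites, 108 of them with identical borders. The Flag-actin row lay inside the BRG1 row at 200 sites, and the rows overlapped only in part at 600. A single Flag-actin row was involved at 1275 sites and 2 rows at 9.

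The edge of the rule was well filled. An overlap of up to 10 bp made 22 of the sites and one of up to 50 bp made 413. The smallest overlaps included the starts of PGD, an enzyme of the pentose phosphate pathway, AK4, a mitochondrial adenylate kinase, and PPFIA4, a liprin. Just outside, 14 cleared BRG1 rows touched a Flag-actin row without sharing a base. These included rows in BAIAP2 (chr17:81058431-81058750, BRG1 percentile 85.3) and TSNARE1, and 1 outside genes at chr8:127911101-127911290, whose nearest gene was MYC. A further step out, 237 rows lay within 100 bp of a Flag-actin row and 1777 within 1000 bp.

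Clearing decided most of the count. Before it, 13982 BRG1 rows overlapped a Flag-actin row, and 12677 of them (90.7%) lay on an IgG row. The sites are therefore the remainder that IgG did not also list. An IgG row still lay within 1 kb of 71 sites (5.53%).

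Widths fell into 2 kinds of site. The BRG1 rows of the sites had a median width of 200 bp (quartiles 100 and 290), against 210 bp (150 and 300) in the other cleared BRG1 rows. Rows of up to 100 bp were 339 of the sites (26.4%), against 8.42% of the other BRG1 rows (9.11% of all cleared BRG1 rows). The Flag-actin rows of the sites had a median width of 250 bp, against 280 bp in the other Flag-actin rows. Rows of up to 100 bp were 272 of 1263 (21.5%), against 1.67% of the other Flag-actin rows (2.66% of all). At least 1 of the pair of rows was this narrow at 380 sites, called narrow here, and neither was at 904 sites, called wide. Narrow sites had midpoints of maximum within 50 bp of each other in 97.6% of cases, against 29.5% of wide sites. The width cut itself limits this distance, because both rows were up to 100 bp wide at 231 of the 380 narrow sites.

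Ranks were taken as percentiles of the total signal, column 4 of the lists, within the cleared list of the same library. The BRG1 rows of the sites had a median percentile of 53.4 (quartiles 28.7 and 75.2), and 98 of them (7.63%) were above percentile 90, against 10.1% of the other BRG1 rows. Their Flag-actin rows had a median percentile of 61.6 (33.5 and 84.0), and 243 (19.2%) were above percentile 90, against 9.55% of the other Flag-actin rows. So the sites were ordinary BRG1 rows by signal, and more of their Flag-actin rows stood near the top of the list. Signal of the 2 proteins hardly ran together. Spearman's rho between the percentiles over the 1284 sites was 0.06, with 0.04 over wide and 0.10 over narrow sites, as a description of points from the same pair of libraries. Both percentiles were above 50 at 436 sites (34.0%) and above 90 at 22 (1.71%), 21 of which were wide. Flag-actin was above 90 with BRG1 below 50 at 87 sites, and BRG1 above 90 with Flag-actin below 50 at 39.

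**Figure D1:**
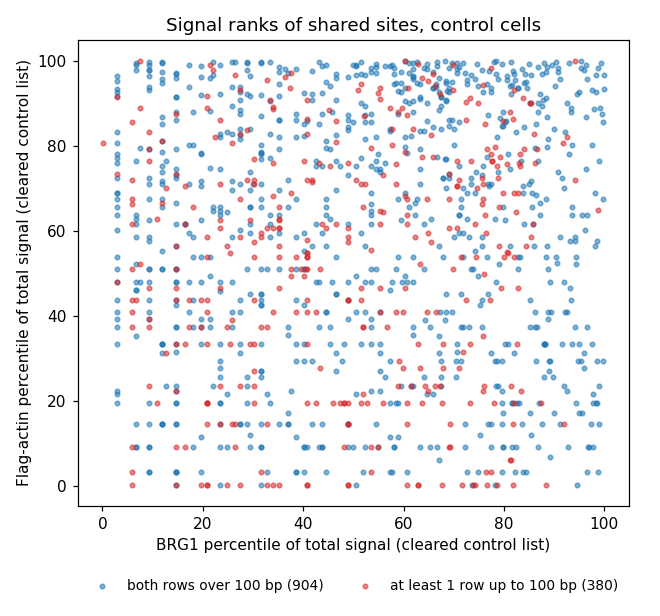
Percentile of Flag-actin total signal (vertical axis) against percentile of BRG1 total signal (horizontal axis) in the cleared control lists, 1 point per site, with wide sites in blue and narrow sites in red. Points in lines have tied signal. The points fill the whole square, with a Spearman's rho of 0.06 over 1284 sites.

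Of the 10 sites with the highest mean percentile over both antibodies, those at IQGAP1 and GPHN lay at a gene start, as did 14.3% of all sites. KO percentiles refer to cleared lists of 6789 and 12782 rows for BRG1 and of 12105 and 18462 rows for Flag-actin, in KO1 and KO2. These are shorter than the control lists, so a different percentile in a KO list gives the place in that list and shows no change in binding. The highest was on chromosome 1 (chr1:16644416-16645205), 27301 bp from the nearest protein-coding gene entry, LOC124903857. It had BRG1 percentiles of 76.2 in KO1 and 99.7 in KO2, against 99.3 in control. Its Flag-actin percentiles were 98.9 in KO1 and 97.4 in KO2, against 99.4 in control. Both proteins were listed in every antibody library at this site. It lies in the chromosome 1 segment with annotated pseudogene copies described further on, whose values are uncertain.

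At the IQGAP1 start (chr15:90387911-90388180), BRG1 stood at percentile 18.7 in KO1 and 48.2 in KO2, against 94.2 in control. Flag-actin stood at 99.83 in KO1 and 99.89 in KO2, against 99.95 in control. Flag-actin was thus near the top of all 3 lists there, while the BRG1 row was near the top of the control list alone. The control Flag-actin row of 90 bp had a maximum signal of 21884, and the BRG1 row of 270 bp one of 145, on scales that are not comparable between antibodies. Within the Flag-actin list this maximum was also extreme, as the next highest among the sites named here was 1224, in PIEZO1. By its 90 bp row the IQGAP1 site is a narrow one, and whether it is background was not tested.

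The site in TCF7L2 (chr10:113073701-113074230), which encodes a transcription factor of the Wnt pathway, had BRG1 at percentile 100 in KO1 and 98.4 in KO2, against 99.8 in control. Flag-actin had no row in KO1 or KO2 there, against percentile 93.4 in control. The site nearest SLC39A11 (chr17:72421191-72422270), 223679 bp from that zinc transporter gene, had BRG1 at 98.4 in KO1 and 96.4 in KO2, against 99.9 in control. Flag-actin had no row there in KO1 or KO2, against 96.7 in control. At both of these sites the BRG1 rank was high in all 3 lists and Flag-actin was listed in control alone.

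The site in SDK1 (chr7:3708311-3708690), a gene for a cell adhesion molecule, showed the reverse. Flag-actin stood at percentile 7.48 in KO1 and 99.6 in KO2, against 99.1 in control. BRG1 had no row in KO1 or KO2, against 96.4 in control. Flag-actin was near the bottom of the KO1 list and near the top of the KO2 list at this site.

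PEG10 (chr7:94657831-94658520), an imprinted gene derived from a retrotransposon, kept both proteins in KO2 and neither in KO1. BRG1 was at percentile 86.6 in KO2, against 98.8 in control, and Flag-actin at 77.4 in KO2, against 98.2 in control. The GPHN start (chr14:66507551-66508230) kept BRG1 in KO2 at percentile 11.2, against 95.9 in control. Flag-actin there had no KO row, against percentile 97.9 in control. SORCS2 (chr4:7386881-7387400), a sortilin-family receptor gene, kept Flag-actin in KO2 at 84.15, against 98.25 in control, and no BRG1 row, against 95.3 in control. The site nearest CCNYL1B (chr16:34000245-34000714), 350790 bp from that gene, kept BRG1 in KO1 at 42.5, against 95.4 in control. It kept Flag-actin in KO2 at 99.3, against 99.8 in control. The site nearest LY86 (chr6:6686891-6687460), 31909 bp from that gene, kept BRG1 in KO1 at 44.2, against 98.3 in control. It had no Flag-actin KO row, against 96.7 in control. These 5 sites kept a protein in only 1 of the 2 KO lists of its antibody.

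**Figure D2:**
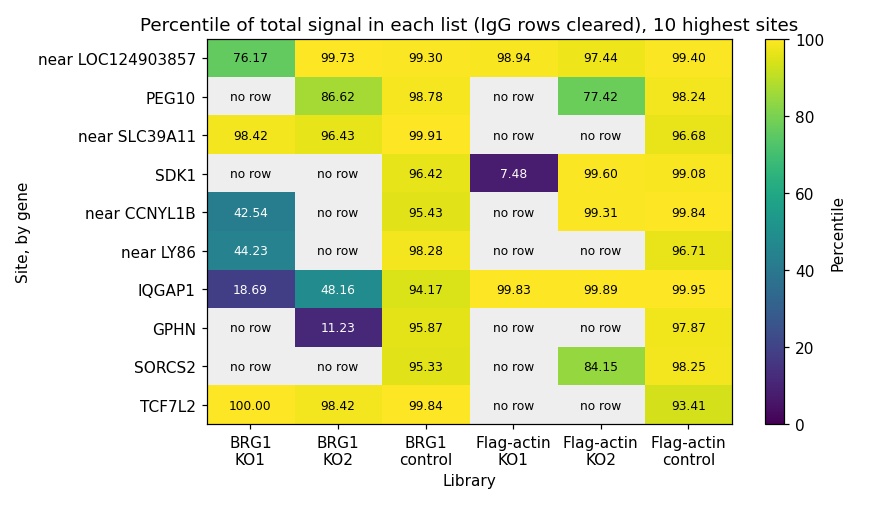
Percentile of total signal within each list, after clearing of IgG rows, for the 10 sites with the highest mean control percentile (rows) in the 6 antibody libraries (columns, KO before control for each antibody); grey cells had no row. Only the site near LOC124903857 and the IQGAP1 start have a value in all 6 libraries.

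By position, 241 sites (18.8%, interval 16.7 to 21.0) lay within 1 kb of an end of a protein-coding gene, 587 (45.7%) lay inside a gene and 456 (35.5%) beyond genes. Gene ends held 20.7% (20.2 to 21.1) of the other BRG1 rows and 11.8% (11.4 to 12.2) of the other Flag-actin rows, and 20.6% and 12.2% of all cleared BRG1 and Flag-actin rows. The share at gene ends was therefore close to that of BRG1 rows and above that of Flag-actin rows. Sites beyond genes lay a median of 39768 bp from the nearest one. Wide sites were at gene ends in 24.2% of cases and narrow sites in 5.79%. Gene starts alone held 183 sites (14.3%), against 17.8% of the other BRG1 rows and 6.45% of the other Flag-actin rows. Exons, introns and UTRs were not used here, since the gene table gives only the ends of genes.

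Near chromosome ends the share of sites was close to that of the Flag-actin list. Within 5 Mb of a chromosome end lay 385 sites (30.0%, interval 27.5 to 32.5), against 10.3% (9.93 to 10.6) of the other BRG1 rows and 30.1% (29.5 to 30.7) of the other Flag-actin rows. Over all cleared rows these shares were 11% for BRG1 and 30.1% for Flag-actin. Within 1 Mb lay 8.57% of the sites, against 1.81% of the other BRG1 rows and 6.40% of the other Flag-actin rows. The sites were not alike in this, with 35.5% of wide and 16.8% of narrow sites within 5 Mb. Without chromosomes 8, 16 and 17 the share within 5 Mb was 23.1% of the sites, against 8.59% of the other BRG1 rows and 25.4% of the other Flag-actin rows.

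Chromosome 17 held the most sites, 178 (13.9%), against 6.63% of the other BRG1 rows and 11% of the other Flag-actin rows. Chromosome 8 held 8.80% of the sites, against 6.26% and 6.40%, and chromosome 16 held 8.41%, against 3.97% and 7.28%. Chromosome 2 held 3.89%, against 6.88% and 5.99%, and chromosome 22 held 1.95%, against 2.05% and 3.72%. Chromosomes 8, 16 and 17 were thus above both lists, and chromosome 22 close to the BRG1 list. Above both lists too were chromosomes 10 (6.78%, against 6.11% and 5.93%) and 21 (3.43%, against 1.63% and 3.01%). Chromosome X held 13 sites (1.01%), close to the 0.997% of the other BRG1 rows and above the 0.36% of the other Flag-actin rows. It held 0.111% of the wide sites. In bins of 5 Mb, chromosome 17 from 80 to 85 Mb held the most, with 55 sites, which were 22.7% of its 242 BRG1 rows. Chromosome 8 from 140 to 145 Mb held 51 (18.3% of 279), and chromosome 16 from 85 to 90 Mb held 48 (16.7% of 287). Over all cleared BRG1 rows this share was 3.82%. These bins were also dense in Flag-actin, with 678, 699 and 786 rows in the same order. They held 2.66%, 2.75% and 3.09% of all cleared Flag-actin rows, against 0.72%, 0.83% and 0.854% of all cleared BRG1 rows. Of the sites they held 4.28%, 3.97% and 3.74%.

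**Figure D3:**
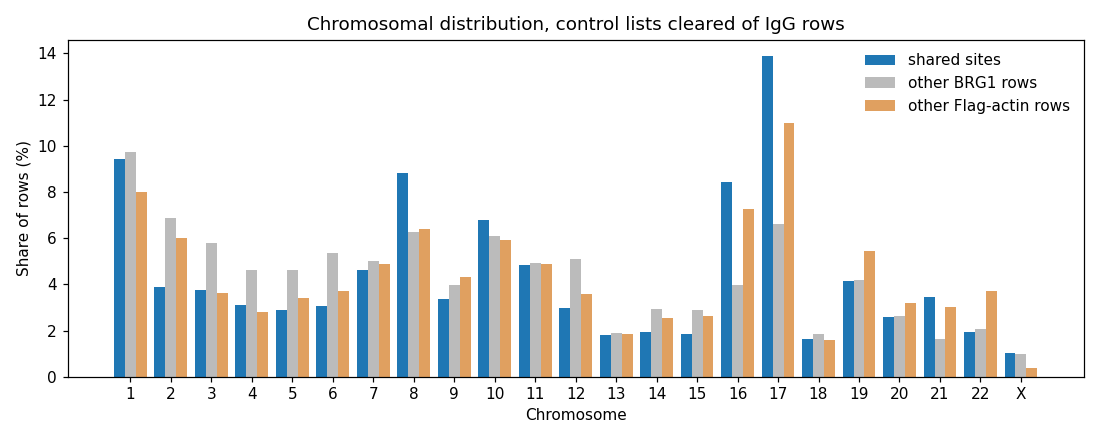
Share of rows on each chromosome, in percent, for the 1284 sites, the other cleared BRG1 rows and the other cleared Flag-actin rows. In percentage points the sites exceed the other BRG1 rows most on chromosome 17, at 13.9% against 6.63%.

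A segment of 193 kb on chromosome 1, chr1:16566536-16759344, was singled out after its values were seen. It held 23 sites over 19 distinct Flag-actin rows, and 18 further BRG1 rows without Flag-actin. Of the 23 sites, 18 lay in annotated pseudogenes, with 12 in CROCCP2, 4 in ESPNP and 2 in MST1P2. These are copies of the genes for rootletin, espin and macrophage stimulating 1. How reads of near-identical copies were placed is not stated in the labels, so values in this segment are uncertain. The median percentile was 61.9 for BRG1 and 97.0 for Flag-actin, with 15 Flag-actin rows above percentile 90. Flag-actin was kept at 7 of the 23 sites in KO1 and at 16 in KO2, and BRG1 at 1 in KO1 and 2 in KO2.

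In all, 790 protein-coding genes had a site within them or within 1 kb of an end, which is 3.96% of 19974, and 281 (1.41%) had one at an end. BRG1 and Flag-actin rows both stood at an end of 5.30% of genes, overlapping or not, so most of those genes carried the proteins at separate positions or at opposite ends. Exactly 2 sites were found at 60 genes and 3 or more at 26. RPTOR, which encodes the raptor subunit of mTORC1, and SYTL3, a synaptotagmin-like effector of Rab27, had 5 each. CMIP, DIP2C, LHPP, PIEZO1 (a mechanosensitive ion channel), RASA3 (a Ras GTPase-activating protein), RNF213 and SEPTIN9 (a septin of the cytoskeleton) had 4 each. These 9 genes ranged in length from 69.9 kb for PIEZO1 to 422 kb for RPTOR.

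Gene lists chosen for the tissue and the complexes are described by counts. Of the 11 lists with 418 genes, 30 genes (7.18%) had a site at an end or inside, against 3.96% of all genes. Of all 19974 genes, 31.1% had a BRG1 row and 14.7% a Flag-actin row at an end. Among 78 cytosolic ribosomal protein genes, 41 had a BRG1 row and 13 a Flag-actin row at an end. RPL13, RPLP2 and RPS6 had a site at an end (3.85%, against 1.41% of all genes). RPL13 (chr16:89560461-89560740) had percentiles of 89.7 for BRG1 and 99.1 for Flag-actin in control. RPS6 had 90.6 and 52.5, and RPLP2 had 81.6 and 19.6. None of the 3 kept either protein in a KO list. Of 41 translation factor genes, EIF4G2, an initiation factor 4G relative, had a site at an end, with BRG1 kept in KO1 only, and PABPC1, the cytoplasmic poly(A)-binding protein, had one inside.

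Extracellular matrix genes held the most, with 9 of 31 (29.0%) at an end or inside. Sites at an end were found for LAMC1, the laminin gamma 1 chain, and COL6A3. Sites inside were found for AGRN, COL17A1, COL18A1, COL4A2, COL6A1, COL6A2 and LAMA5. The LAMC1 site had percentiles of 76.5 for BRG1 and 94.6 for Flag-actin in control and no KO row. At an end or inside, BRG1 rows were found in 28 of these 31 genes and Flag-actin rows in 18. The share of all genes with such rows is not given here, and gene length was not taken into account in any list. At an end alone, 2 of the 31 had a site (6.45%, against 1.41% of all genes). A BRG1 row stood at an end of 13 and a Flag-actin row at an end of 10, against 31.1% and 14.7% of all genes. Integrin and focal adhesion genes had 4 of 32, namely ACTN4 at an end and ITGA3, ITGB3 and PTK2 inside, and none of the named sites was kept. Of 31 epithelial junction genes only CDH3, P-cadherin, had one, with Flag-actin kept in KO2.

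Of 48 genes for actins and actin-binding proteins, EZR and RDX, which link actin to the membrane, had a site at an end and CAPZA1, an actin capping subunit, had one inside. BRG1 was kept in KO2 at the EZR and CAPZA1 sites. No site lay in an actin gene. Of 36 genes of actin-containing remodellers, SMARCD2 and BICRA, both subunits of SWI/SNF complexes, had 1 each, neither kept. AP-1 and immediate early genes had no site, and 23 of 28 had a BRG1 row at an end. Only 1 of the 28 had a Flag-actin row at an end. Over all genes these shares were 31.1% for BRG1 and 14.7% for Flag-actin. A site at an end or inside was found for 3.96% of all genes, so none among 28 genes is near that share. Wnt genes had TCF7L2 and NOTUM of 27, and cell cycle genes had MKI67, the Ki-67 antigen, of 34. Of 32 markers of unrelated tissues, 11 had a Flag-actin row at an end (14.7% of all genes) and 2 a BRG1 row (31.1% of all genes). None had a site at an end, and 9.38% had one inside, among them RBFOX3 and SYT1, both neuronal genes. This share was above the 3.96% of all genes and the 7.18% over the 11 lists with a site at an end or inside.

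The knockout lists were then searched for rows over the same stretches. A row was called kept when a row of the same antibody in a KO list overlapped it by at least 1 bp. Every list was cut at a fixed fraction of its own signal blocks, so a row that was not kept had fallen below that cut or was not formed, and loss of binding cannot be told apart from a lower place in the list. The KO rows were also narrower, with medians of 40 and 40 bp for BRG1 in KO1 and KO2, against 140 bp in control, and 50 and 90 bp for Flag-actin, against 220 bp. The part of these widths in the shares below was not tested.

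BRG1 was kept at 68 sites in KO1 (5.30%, interval 4.20 to 6.66) and at 178 in KO2 (13.9%, 12.1 to 15.9). Of the other BRG1 rows, 7.24% (6.96 to 7.52) were kept in KO1 and 13.6% (13.3 to 14.0) in KO2, and of all cleared BRG1 rows 7.16% and 13.7%. The mean over the KO lists was 9.58% ± 6.06 for the sites, against 10.4% ± 4.53 for the other rows (SD, n = 2). This difference is smaller than the spread between KO1 and KO2, and its sign is not the same in the 2 lists. BRG1 was kept in both KO lists at 27 sites (2.10%, 1.45 to 3.04), against 3.96% (3.75 to 4.18) of the other BRG1 rows and 3.89% of all. Width changed the direction of the BRG1 comparison. Among rows of up to 100 bp, 7.37% (5.04 to 10.7) of the sites were kept in KO1 and 22.4% (18.3 to 27.2) in KO2, against 7.06% (6.15 to 8.08) and 13.2% (12 to 14.5) of the other rows. Among rows over 200 and up to 300 bp, 1.80% (0.828 to 3.87) of the sites were kept in KO1 and 7.21% (4.89 to 10.5) in KO2, against 5.71% (5.27 to 6.19) and 11.6% (11 to 12.2) of the other rows. Among rows over 300 bp the shares were 10.2% (7.18 to 14.2) of 285 sites in KO1 and 18.6% (14.5 to 23.5) in KO2, against 16.7% (15.9 to 17.5) and 29.3% (28.3 to 30.4) of the other rows of that width.

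Flag-actin showed a much wider gap. Of the 1263 Flag-actin rows at the sites, 244 were kept in KO1 (19.3%, 17.2 to 21.6) and 316 in KO2 (25%, 22.7 to 27.5). Of the other Flag-actin rows, 1.75% (1.59 to 1.92) were kept in KO1 and 3.81% (3.57 to 4.05) in KO2, and of all cleared Flag-actin rows 2.62% and 4.86%. The mean was 22.2% ± 4.03 for the sites, against 2.78% ± 1.46 for the other rows (SD, n = 2), a difference of 19.4 percentage points that exceeds the spread between KO1 and KO2. The same Flag-actin rows also overlapped rows of the BRG1 KO lists more often, at 4.04% in KO1 and 12.4% in KO2. The other Flag-actin rows did so at 0.318% and 0.62%. The sites were chosen to carry a BRG1 control row, so part of this second gap is set by the rule. Both Flag-actin KO lists kept 152 of the 1263 (12%), against 0.653% of the other rows and 1.22% of all.

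Width moved with this result. Among Flag-actin rows of up to 100 bp, the sites kept 49.3% of 272 in KO1 and 56.2% in KO2, against 28.7% and 39.4% of the other narrow rows. Among rows over 100 bp, the sites kept 110 of 991 in KO1 (11.1%, 9.29 to 13.2) and 163 in KO2 (16.4%, 14.3 to 18.9), against 1.29% and 3.20% of the other rows. The gap thus remained in wider rows, at a lower level. Among rows over 300 bp it was 6.25% of the sites in KO1 and 13.8% in KO2, against 1.11% and 3.71%. The sites also had the higher share in each 25% of the list by signal. In rows over 100 bp with total signal in the top 25% of the list, 17.8% of the sites were kept in KO1 and 29.3% in KO2, against 2.34% and 5.41%. In the lowest 25%, 6.90% and 6.32% of the sites were kept, against 0.753% and 1.97%. The gap was smallest between percentiles 25 and 50 in KO1, with 2.04% (0.796 to 5.13) of the sites, against 0.765% (0.576 to 1.02), where the intervals overlap.

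**Figure D4:**
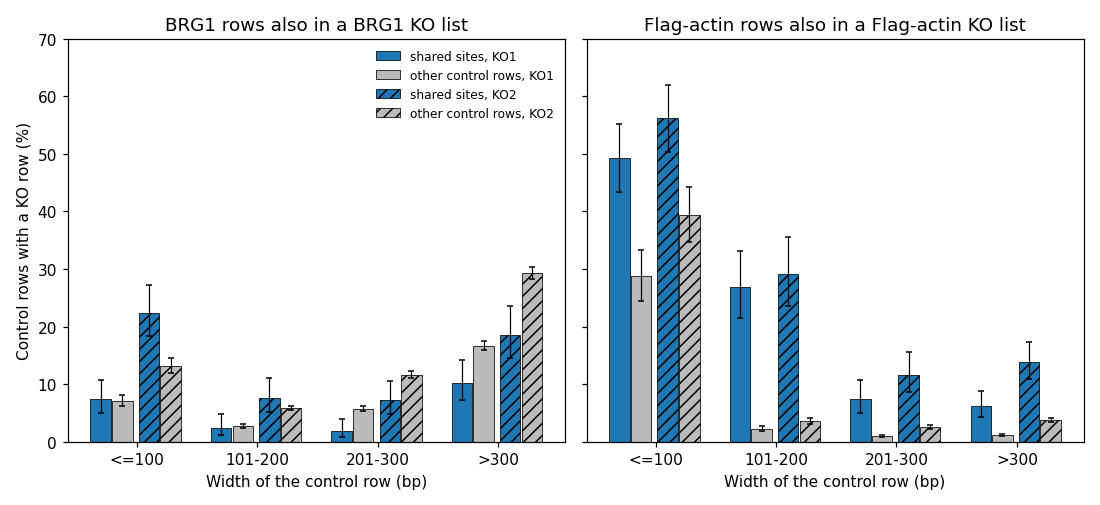
Percent of control rows with a row in the KO list of the same antibody (vertical axis) by width of the control row in bp (horizontal axis), for BRG1 on the left and Flag-actin on the right. Blue bars are the sites, called shared sites in the plot, grey bars the other cleared rows, hatching marks KO2 and lines are 95% Wilson intervals. The Flag-actin bars of the sites stand above the other rows at every width, while the BRG1 bars of the sites lie below them in both classes over 200 bp.

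Taking both proteins, 772 sites (60.1%, interval 57.4 to 62.8) kept neither in any of the 4 KO lists, and 512 (39.9%) kept at least 1. By protein, BRG1 was kept in either list at 17.1% of the sites, against 16.9% of all cleared BRG1 rows. Flag-actin was kept in either list at 32.1% of the sites, against 6.26% of all cleared Flag-actin rows. Classes that need both proteins have no such share over other rows. Flag-actin alone was kept at 293 sites (22.8%), of which 171 were narrow and 122 wide. BRG1 alone was kept at 100 sites (7.79%), of which 87 were wide. Both were kept in at least 1 list each at 119 sites (9.27%), of which 92 were narrow. These classes depend on both proteins, and BRG1, counted whatever Flag-actin did, was kept in either list at 105 of 380 narrow sites (27.6%) and at 114 of 904 wide sites (12.6%). Sites with BRG1 alone had a median BRG1 width of 365 bp and a median BRG1 percentile of 88.1, and 34.0% lay at a gene end. Sites with Flag-actin alone had a median BRG1 width of 100 bp and a median Flag-actin percentile of 71.1, and 8.19% lay at a gene end. Sites with neither had a median BRG1 percentile of 45.4, and 22.9% lay at a gene end.

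Among the 904 wide sites, BRG1 was kept at 38 (4.20%) in KO1 and 92 (10.2%) in KO2, and Flag-actin at 69 (7.63%) in KO1 and 122 (13.5%) in KO2. Neither was kept at 668 (73.9%). Wide sites that kept BRG1 in either list had a median BRG1 percentile of 88.1, and those that kept Flag-actin had a median Flag-actin percentile of 93.1. Among the 380 narrow sites BRG1 was kept at 30 (7.89%) in KO1 and 86 (22.6%) in KO2, and Flag-actin at 177 (46.6%) in KO1 and 199 (52.4%) in KO2. Flag-actin was kept in either KO list at 263 of them (69.2%), and neither protein at 104 (27.4%). Both proteins were thus kept at a larger share of narrow than of wide sites. Before clearing, rows of up to 100 bp made 79.8% of the IgG list of the Flag arm and 92.4% of the BRG1 arm. They made 85.8% and 76.9% of the BRG1 lists of KO1 and KO2, against 37.9% in control. For Flag-actin they made 82.9% and 57.2%, against 29.4% in control. Whether the narrow sites are background was not tested.

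**Figure D5:**
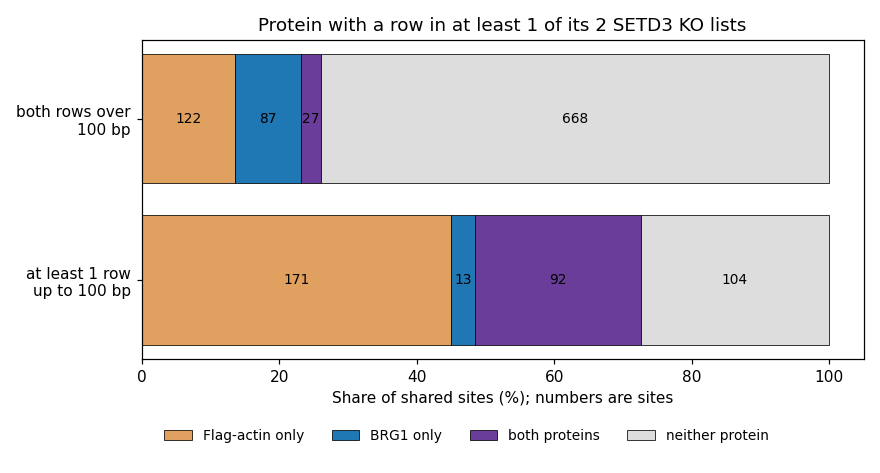
Share of sites, in percent, by which protein had a row in at least 1 of its 2 KO lists, with wide sites in the upper bar and narrow sites in the lower one, and numbers of sites in each piece. Neither protein was kept at 668 of 904 wide sites and at 104 of 380 narrow sites.

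All 4 KO lists held a row at 7 sites, 5 of them narrow. Besides the site near LOC124903857, in the uncertain segment of chromosome 1, and the IQGAP1 start, these lay in PTPRA (a receptor tyrosine phosphatase), in MKLN1 (muskelin) and at an end of MCCC1 (a subunit of methylcrotonyl-CoA carboxylase). The others were nearest to ZNF599 (25550 bp away) and TSPAN9 (47252 bp away). At the PTPRA site (chr20:2972131-2972180), BRG1 stood at percentile 53.4 in KO1 and 93.8 in KO2, against 83.9 in control. Flag-actin stood at 98.0 in KO1 and 78.2 in KO2, against 79.2 in control. At the MCCC1 site (chr3:183116221-183116330) BRG1 stood at 73.4 in KO1 and 96.9 in KO2, against 33.5 in control, and Flag-actin at 13.15 in KO1 and 18 in KO2, against 77.2 in control.

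BRG1 in both KO lists with Flag-actin in neither was found at 13 sites, all wide, with a median BRG1 percentile of 95.5. Besides TCF7L2 and the site nearest SLC39A11, the highest were nearest to LOC124902420 (9000 bp away), at the GCSH start, in MACF1, which encodes a linker of microtubules and actin, and in RASA3. The GCSH site (chr16:81096271-81096690) had BRG1 at 17.55 in KO1 and 93.1 in KO2, against 93.3 in control, and Flag-actin with no KO row, against 87.85 in control. The MACF1 site (chr1:39183581-39184090) had BRG1 at 99.0 in KO1 and 97.8 in KO2, against 98.1 in control. Its Flag-actin row stood at 69.0 in control only.

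Flag-actin in both KO lists with BRG1 in neither was found at 94 sites, 65 of them narrow. The 6 highest, all wide, were in SDK1, nearest TSHZ3 (113964 bp away), in RAB40C, nearest BRD3OS (11041 bp away), in CACNA1H (a T-type calcium channel) and in DIP2C. The site nearest TSHZ3 (chr19:31464841-31464990) had Flag-actin at 96.45 in KO1 and 97.55 in KO2, against 95.7 in control. The CACNA1H site (chr16:1191361-1191870) had Flag-actin at 21.9 in KO1 and 99.5 in KO2, against 98.5 in control. In KO2 the Flag-actin rank was above 75 at all 6, while in KO1 it was below 25 at SDK1, BRD3OS and CACNA1H.

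Among the 772 sites with neither protein in a KO list, the highest control ranks were at an end of PSCA (prostate stem cell antigen), at the starts of RPL13 and DHX40, and in ZNF469, ANKRD11 and ERICH1. PSCA had control percentiles of 92.9 for BRG1 and 99.5 for Flag-actin. ANKRD11 (chr16:89320061-89320760), a gene for a chromatin regulator, had 99.1 for BRG1 and 88.9 for Flag-actin. DHX40 (chr17:59565501-59566190) had 88.7 and 98.6. High rank of both proteins in control thus also occurred at sites with no KO row.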

How the data were processed

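CUT&RUN peak lists of 8 HCT-116 libraries were analysed. The genome build was hg38, per the submitters' processing notes, which list SEACR and MACS2 among the tools. They also list bedtools 2.30.0, deepTools, BWA, Trim Galore 0.4.5, SAMtools and FastQC 0.12.0, without steps or parameters. The deposited lists, 1 per library, have the 6-column SEACR layout and give the total and maximum signal of each row as the authors made them. Their names carry the word stringent and thresholds of 0.01 (antibodies) and 0.005 (IgG). Read depth is unknown and the sources used here give no normalisation of the signal. Signal was therefore used only as a percentile within a list. A fixed threshold keeps a top fraction, so the number of rows does not measure binding.

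Overlaps of 1 bp or more, Wilson 95% intervals and medians were obtained with numpy 2.4.6, pandas 2.3.3 and scipy 1.17.1 under Python 3.11.15, and the overlap code was checked on simulated data against bedtools 2.31.1. KO rows were ranked in KO lists cleared of IgG rows. Genes came from the RefSeq table of GRCh38.p14, and a gene end is a window of 1 kb. A site takes the name of the gene at whose end or in which it lies, else of the nearest. Named sites were the 10 highest by mean percentile, the highest of each KO pattern, the widest and smallest overlaps, the sites at genes of the 11 lists (all 418 symbols matched) and genes with 3 or more sites. The sites and lists were chosen with earlier results of these data known. No test was run between conditions, since each antibody had 1 control library. A gene of the lists is not reported here.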

Additional observations from a re-analysis of the deposited data

How the results depend on the processing

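The 8 summary values were recomputed under up to 12 alternatives each, and of 89 recomputed values 47 moved by less than the spread between the KO libraries (shares of sites by place or pattern, within their 95% interval; numbers of sites, by less than 1.5 times), 40 moved by more and 2 changed sign. Leaving out either KO library moves a kept share, or its difference from other rows, by less than that spread by construction. Those values could not count among the 40, so their place in the tally shows no stability. The settings on row width and on dense regions, the differences between sites and other rows, the share near chromosome ends and the share with neither protein were added after seeing the data. The cause of a change was not tested unless the setting's own construction gives it. With no rows cleared there were 13982 sites (1284 as reported), with BRG1 kept at 76.9% and Flag-actin at 88.3%, differences from the other rows of 55.4 points for BRG1, which changed sign, and 84.5 for Flag-actin, 5.16% at gene ends, 12.2% near chromosome ends and 6.64% with neither protein. With lists cut to equal length there were 202 sites, 19.8% BRG1 kept, 27.6% Flag-actin kept (24.3 points above the other rows), 25.2% at gene ends and 41.6% with neither. In the upper 50% of each list by maximum signal there were 589 sites, 14.9% BRG1 kept (9.58% as reported), 41.2% Flag-actin kept (36.3 points above), 9.51% at gene ends, 22.8% near chromosome ends and 35.1% with neither. By total signal there were 436 sites, 14.8% BRG1 kept, 31.3% Flag-actin kept (27.2 points above), a BRG1 difference of -2.72 points and 45.9% with neither. With both rows over 100 bp, Flag-actin was kept at 10.4% (7.98 points above), the BRG1 difference was -3.29 points, 24.2% lay at gene ends, 35.5% near chromosome ends, and 73.9% kept neither. With an overlap of 50% of the shorter row, the Flag-actin difference was 23.4 points, gene ends held 14.2%, and 56.0% kept neither. Without chromosomes 8, 16 and 17 these were 23.2 points and 56.6%, with 23.1% near chromosome ends. Gene ends held 28.7% in a 3 kb window and 14.3% for starts alone. Leaving out either KO library gave 5.30% to 13.9% for BRG1, 19.3% to 25% for Flag-actin, -1.94 to 0.221 points for the BRG1 difference (0.221 without KO1), 17.6 to 21.2 for the Flag-actin difference, and 67.4% to 77.6% with neither. No paired analysis was possible because no result comes from a test and each antibody had 1 control library. Depth is unknown, so rows that were not kept may lie below the cut of a shallower library.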
